A study of Mus musculus with 13 samples.

Results

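The miR-29 family was taken as every row of the miRNA table named for an arm of a mouse miR-29 precursor, which gave 7 of 1705 miRNAs. Of these, 3 were 3p arms (mmu-miR-29a-3p, mmu-miR-29b-3p and mmu-miR-29c-3p) and 4 were 5p arms (mmu-miR-29a-5p, mmu-miR-29b-1-5p, mmu-miR-29b-2-5p and mmu-miR-29c-5p), written below without mmu-, the prefix for mouse. The rule goes by name, but the family was chosen with earlier results of these data known. The data came from AGO CLIP, in which RNA crosslinked to Argonaute (AGO) by ultraviolet light is purified with the protein and sequenced. Each sequenced fragment is called a tag. Cortex of wild-type C57BL6 mice aged 7 to 8 weeks was used, and all 3 groups were wild type. The ipsilateral group (5 libraries) was the cortex on the side of an occlusion of the middle cerebral artery (MCAO) that lasted 35 min and was followed by 3 h of recovery. The contralateral group (4 libraries) was the opposite cortex after the same surgery, and the sham group (4 libraries) was cortex after anesthesia and sham surgery.

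An AGO protein holds a short guide RNA and finds its targets by pairing of the guide's seed, bases 2 to 8, with the target, most often in a 3'UTR. Each miRNA precursor is a hairpin whose arms give a 5p and a 3p miRNA, and usually one arm is kept as the guide. In the miR-29 family the 3p arm is the usual guide. The family is abundant in the mature brain, where it has been found in neurons and astrocytes, and it is best known for lowering collagens and other matrix proteins, the DNA methyltransferase DNMT3A and proteins of the apoptosis pathway.

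The mature sequences, from RefSeq on GRCm38.p6, show why the arms must be read apart. All 3 guide arms share 1 seed, given in capitals, so that a target peak cannot be assigned to one of them, whereas the 4 opposite arms carry 4 different seeds.
miR-29a-3p: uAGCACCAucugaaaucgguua
miR-29b-3p: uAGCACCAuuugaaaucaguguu
miR-29c-3p: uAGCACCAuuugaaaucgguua
miR-29a-5p: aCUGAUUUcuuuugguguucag
miR-29b-1-5p: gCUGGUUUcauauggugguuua
miR-29b-2-5p: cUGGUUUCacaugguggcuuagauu
miR-29c-5p: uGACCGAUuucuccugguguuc
Counted from the 5′ end, miR-29c-3p differed from miR-29a-3p at 1 position, C10U, and miR-29b-3p differed from miR-29a-3p at 4 of the first 22 positions, C10U, G18A, U21G and A22U. From miR-29b-3p, miR-29c-3p differed at 3 of these positions, A18G, G21U and U22A. How reads that match more than 1 of these arms were counted is not given in the sources used here. The split among the 3 guide arms is therefore uncertain. miR-29b-3p is made by 2 loci with the same mature sequence. The hairpins of Mir29a (chr6:31062660-31062747) and Mir29b-1 (chr6:31063023-31063093) lie 275 bases apart on the minus strand, and those of Mir29b-2 (chr1:195037040-195037120) and Mir29c (chr1:195037547-195037634) lie 426 bases apart on the plus strand.

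Depth was uneven. Libraries held 3851 to 61708 miRNA tags, and ipsilateral replicate 5 was the shallowest, with 576 miRNAs at 0 tags and 1 tag worth 2.60 tags per 10000. The libraries of replicate 1 stood apart in the peak table: 58.8% to 69.6% of their peak tags lay outside exons, against 28.5% to 54.0% in the other libraries. The tissue markers of the miRNA table were mixed. The neuronal miRNA miR-124-3p had 4707 tags over the 13 libraries and ranked 3 of 1705. Of the other cortex miRNAs listed, miR-9-5p had 546 tags, miR-138-5p 409 and miR-128-3p 96. In contrast let-7a-5p, a highly abundant miRNA of brain, had 143 tags, near the 127 tags of the liver miRNA miR-122-5p and the 163 tags of the heart miRNA miR-208a-3p. The heart and muscle miRNA miR-1a-3p had 75. The median miRNA had 172 tags, with quartiles at 117 and 252. A miRNA near that median was therefore not clearly above miRNAs of other organs, and whether such counts are AGO-bound miRNA was not tested. Among gene markers, tags were found for 9 of 11 astrocyte genes and 10 of 12 neuron genes, against 1 of 9 microglia and myeloid genes, 2 of 10 vascular genes and 1 of 5 blood genes.

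Of the 7 miRNAs, 4 stood above the common level of the table and 3 did not. miR-29b-3p had the most tags, 950 in all (rank 31), followed by miR-29a-5p with 787 (rank 43), miR-29a-3p with 476 (rank 116) and miR-29b-2-5p with 312 (rank 254). miR-29b-1-5p with 176 tags, miR-29c-5p with 148 and miR-29c-3p with 144 lay at 1.02, 0.860 and 0.837 times the median. miR-29b-3p and miR-29a-5p exceeded 2 times the library median in all 13 libraries, miR-29a-3p in 8, miR-29b-2-5p in 2 and the remaining 3 miRNAs in 0 libraries.

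**Figure D1:**
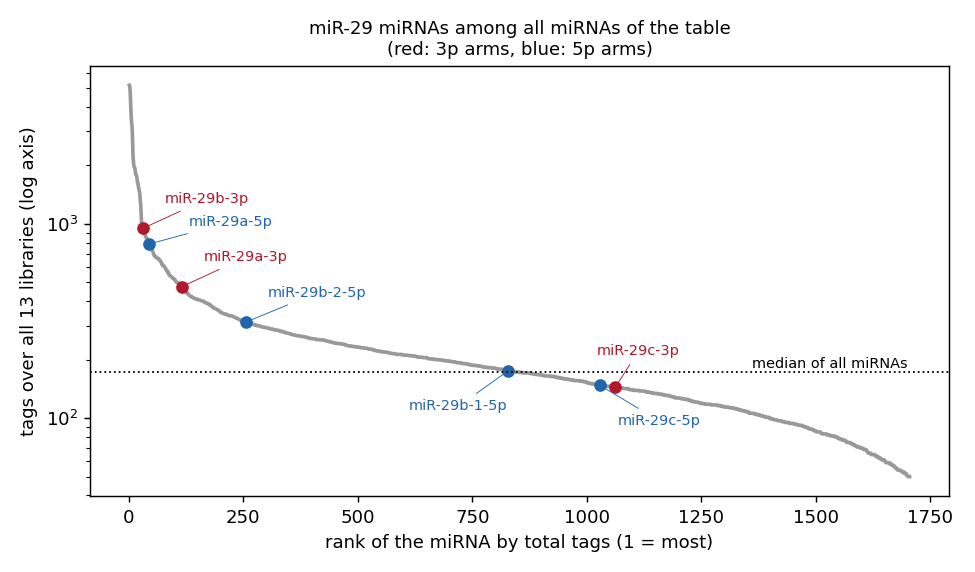
Total tags over all 13 libraries (vertical log axis) of all 1705 miRNAs, ordered by rank (horizontal axis), with the 3p arms in red and the 5p arms in blue and the median of 172 tags dotted. miR-29b-3p (950 tags) and miR-29a-5p (787 tags) lie on the steep left limb, and miR-29b-1-5p, miR-29c-5p and miR-29c-3p lie at the median.

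The order of the leading miRNAs was not fixed across libraries. miR-29b-3p exceeded miR-29a-5p in 9 of 13 libraries and miR-29a-3p in 12 of 13. miR-29a-3p exceeded miR-29b-2-5p in 7 libraries and equalled it in 1, so these neighbours could not be ranked beyond their spread, and neither could miR-29b-1-5p and miR-29c-5p (7 of 13 libraries, 1 equal). miR-29c-5p exceeded miR-29c-3p in 8 of 13 libraries.

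miR-29b-3p, the most covered guide arm, had 12.4, 30.0, 16.8, 17.1 and 51.9 tags per 10000 miRNA tags in the ipsilateral libraries (replicates 1 to 5), 30.0, 15.1, 20.6 and 15.0 in the contralateral libraries (replicates 1, 2, 4 and 5) and 25.2, 31.7, 15.7 and 26.1 in the sham libraries (replicates 1, 2, 3 and 5). The highest value, that of ipsilateral replicate 5, rested on 20 tags, with an exact binomial 95% interval of 31.8 to 80.1 per 10000, which covers counting error only, and the groups overlapped. Group means were 25.6 ± 16.1 in ipsilateral, 20.2 ± 7.03 in contralateral and 24.7 ± 6.64 in sham libraries (SD, n = 5, 4 and 4).

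miR-29a-3p, the guide arm that shares a transcript with miR-29b-1, had 6.04, 12.9, 6.04, 9.88 and 20.8 tags per 10000 in ipsilateral, 15.1, 4.33, 21.3 and 6.15 in contralateral and 16.1, 19.9, 3.61 and 11.03 in sham libraries. Every group held both low and high libraries, and the groups overlapped over almost their whole range. The means were 11.1 ± 6.11 in ipsilateral, 11.7 ± 7.95 in contralateral and 12.6 ± 7.03 in sham libraries, so the spread within each group exceeded the differences between them.

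miR-29c-3p had 1, 20, 11, 1 and 0 tags in ipsilateral, 26, 5, 5 and 0 in contralateral and 30, 32, 6 and 7 in sham libraries, which corresponds to 0.288, 4.61, 2.89, 0.898 and 0 tags per 10000 in ipsilateral, 4.21, 1.35, 3.81 and 0 in contralateral and 5.37, 8.04, 2.41 and 2.34 in sham libraries. No sham library was at 0, and the lowest values were ipsilateral and contralateral, but the groups overlapped. The count of 0 allows up to 7.79 tags per 10000 in ipsilateral replicate 5 and up to 2.05 in contralateral replicate 5 (a limit of 3 tags), and in ipsilateral replicate 5 that is above all but 1 of the other values. Means were 1.74 ± 1.96 in ipsilateral, 2.34 ± 2.01 in contralateral and 4.54 ± 2.73 in sham libraries.

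miR-29a-5p, the arm opposite the guide of Mir29a, had 25.9, 19.8, 15.2, 16.2 and 41.5 tags per 10000 in ipsilateral, 19.4, 18.7, 12.96 and 21.9 in contralateral and 21.999, 14.8, 22.5 and 14.4 in sham libraries. Only ipsilateral replicates 1 and 5 exceeded the highest sham library, and replicate 5 rested on 16 tags. The means were 23.7 ± 10.8 in ipsilateral, 18.2 ± 3.77 in contralateral and 18.4 ± 4.42 in sham libraries.

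The remaining 5p arms were lower and more even. miR-29b-2-5p had 6.62, 9.92, 7.62, 9.88 and 0 tags per 10000 in ipsilateral, 7.29, 7.57, 8.39 and 8.20 in contralateral and 6.80, 8.04, 8.03 and 6.68 in sham libraries. miR-29b-1-5p ranged from 3.74 to 5.26 in ipsilateral, from 2.92 to 6.10 in contralateral and from 3.34 to 5.28 in sham libraries, and miR-29c-5p from 1.61 to 6.29 in ipsilateral, from 1.52 to 3.51 in contralateral and from 3.34 to 4.02 in sham libraries. All groups overlapped for these 3 miRNAs.

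**Figure D2:**
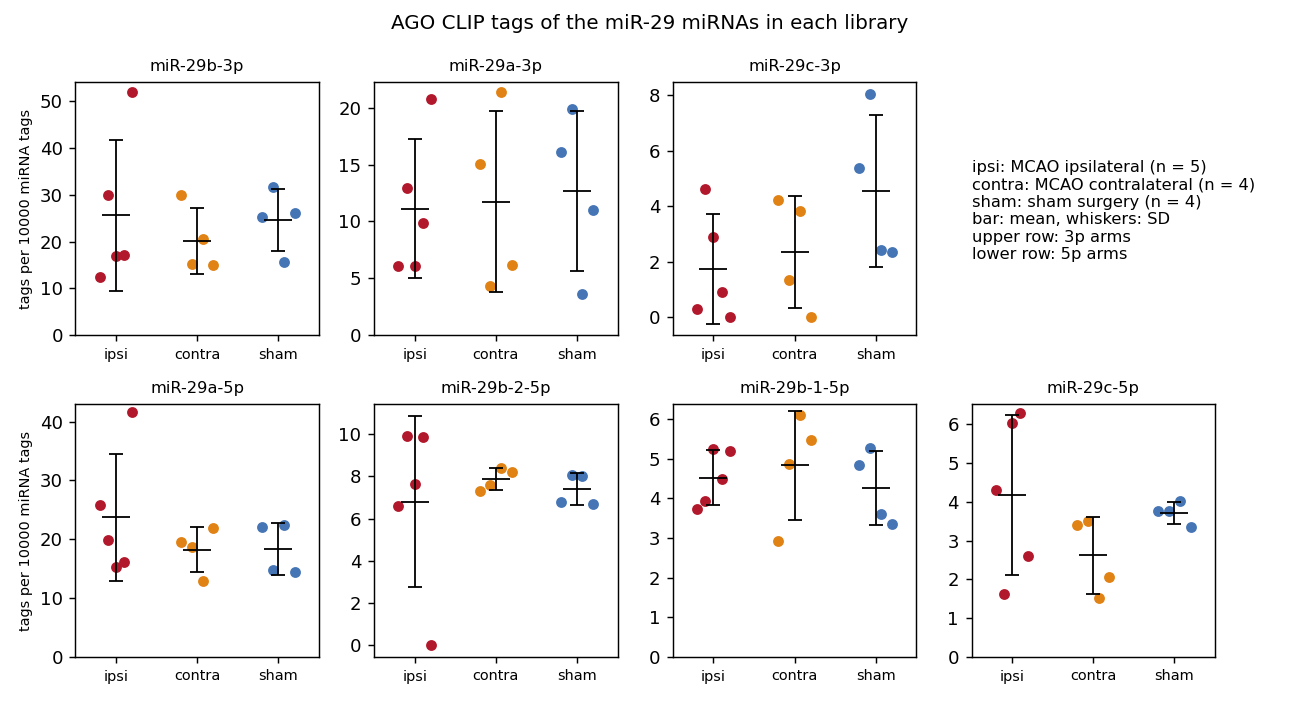
Tags per 10000 miRNA tags of each miR-29 miRNA (one panel each, 3p arms above, 5p arms below) in ipsilateral (n = 5), contralateral (n = 4) and sham (n = 4) libraries. Points are libraries, the bar is the mean and the whiskers are the SD; the groups overlap in every panel, and the highest miR-29b-3p and miR-29a-5p values are those of ipsilateral replicate 5.

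Scaled to the median miRNA count of its own library, miR-29b-3p stood at 7.47 ± 7.11 in ipsilateral, 4.84 ± 1.96 in contralateral and 5.81 ± 1.57 in sham libraries. miR-29c-3p stood at 0.385 ± 0.426 in ipsilateral, 0.557 ± 0.491 in contralateral and 1.07 ± 0.629 in sham libraries. The median was 1 tag in ipsilateral replicate 5, so that multiples there are coarse (20 for miR-29b-3p).

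The 3 guide arms varied between libraries more than most miRNAs, and more than their opposite arms. Against equal shares of each library's tags, the chi-square per degree of freedom over the 13 libraries was 8.93 for miR-29a-3p, 7.97 for miR-29b-3p, 4.76 for miR-29c-3p and 3.02 for miR-29a-5p, where the median miRNA of the table had 1.20. It was 0.658 for miR-29b-1-5p, 0.697 for miR-29b-2-5p and 1.39 for miR-29c-5p. These 3 arms thus varied by about as much as counting alone gives, and the guide arms by several times more. The chi-square of a miRNA grows with its tags, so the comparison is a description; miR-29c-3p, with 144 tags, and miR-29c-5p, with 148, had about equal depth.

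The question for ischemia was whether AGO held more or less of each miR-29 miRNA in the occluded hemisphere. No miR-29 miRNA passed the test in any of the 3 comparisons. edgeR's quasi-likelihood test called 0 of 1427 miRNAs in ipsilateral against sham libraries, and 0 of 7 miR-29 miRNAs against a background of 0%. At an unadjusted p under 0.05 it had 35 miRNAs, 2.45% of those tested, and 1 of the 7, miR-29c-3p. DESeq2 also called 0 miRNAs; without adjustment 13 were under that threshold, and 0 of the 7. In ipsilateral against contralateral libraries edgeR called 0 miRNAs (background 0%), with 52 (3.64%) unadjusted and 0 of the 7, and DESeq2 called 0, with 29 unadjusted. In contralateral against sham libraries edgeR called 0 (background 0%), with 43 (3.01%) unadjusted and 0 of the 7, and DESeq2 called 0, with 20 unadjusted. With the replicate number as a block edgeR also called 0 miRNAs in each comparison. Its unadjusted p for miR-29c-3p was then 0.0101 in ipsilateral against sham, where 41 miRNAs were under 0.05. It was 0.0300 in contralateral against sham libraries, where 48 were. No miR-29 miRNA had every library of one group above or below every library of another, where 0.704% of all miRNAs lay wholly lower and 0.469% wholly higher in ipsilateral than in sham libraries, 0.704% and 0.528% in ipsilateral than in contralateral, and 0.938% and 0.762% in contralateral than in sham libraries. The tags come from RNA purified with AGO, although for miRNAs near the median, miR-29c-3p among them, AGO binding itself was not tested. Without a separate RNA measurement, less RNA and less binding cannot be told apart, and in bulk cortex neither can fewer cells of a type and less RNA per cell.

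In ipsilateral against sham libraries the 3 guide arms had log2 fold changes below 0 and 3 of the 4 5p arms above 0, where 50.7% of all miRNAs tested were below 0. miR-29c-3p had -0.999 (SE 0.44, 95% interval -1.90 to -0.10), with an edgeR p of 0.0301 before adjustment, rank 17 of 1427, and 0.9996 after it. miR-29a-3p had -0.53 (SE 0.36, interval -1.26 to 0.19) and miR-29b-3p -0.15 (SE 0.34, interval -0.85 to 0.54). miR-29a-5p had 0.22 (SE 0.30, interval -0.38 to 0.83). The intervals of miR-29a-3p and miR-29c-3p reached below -1, so the absence of a call does not show equal levels.

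In ipsilateral against contralateral libraries the log2 fold changes were -0.33 (SE 0.38) for miR-29a-3p, 0.09 (SE 0.35) for miR-29b-3p, -0.21 (SE 0.52) for miR-29c-3p and 0.22 (SE 0.31) for miR-29a-5p. None reached its own SE except that of miR-29c-5p, which had 0.38 (SE 0.35). In contralateral against sham libraries they were -0.20 (SE 0.36) for miR-29a-3p, -0.25 (SE 0.35) for miR-29b-3p and -0.79 (SE 0.44) for miR-29c-3p, and 0.00 (SE 0.30) for miR-29a-5p. For miR-29c-3p the contralateral and the ipsilateral values against sham libraries share the sham libraries, which had the highest mean for this miRNA. Without the libraries of replicate 1, miR-29c-3p had 1.03 in ipsilateral against contralateral libraries, so even its direction in that comparison depended on them. With the replicate number as a block, miR-29a-3p had -0.0142 in ipsilateral against contralateral and -0.56 in contralateral against sham libraries, so its values depended on the block.

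**Figure D3:**
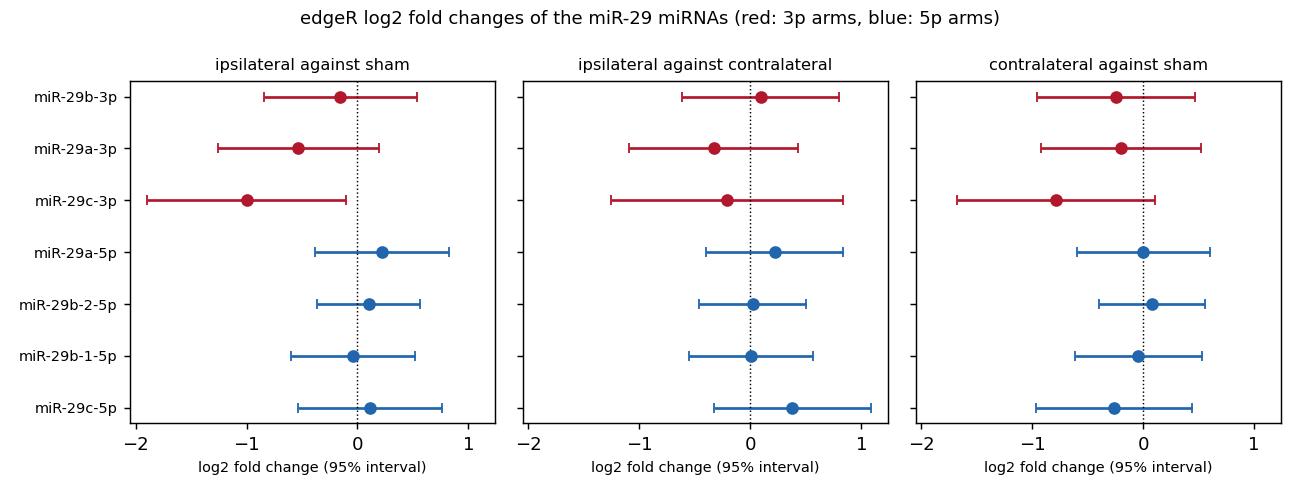
edgeR log2 fold changes (points) with 95% intervals (lines) of the 7 miR-29 miRNAs in the 3 comparisons, 3p arms in red and 5p arms in blue, with 0 dotted. Only the interval of miR-29c-3p in ipsilateral against sham libraries (-1.90 to -0.10) lies wholly on one side of 0, before adjustment over the miRNAs tested.

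The arms of each precursor were compared as the percentage of its tags on the 3p arm. For Mir29a it was 18.9%, 39.4%, 28.4%, 37.9% and 33.3% in ipsilateral, 43.7%, 18.8%, 62.2% and 21.95% in contralateral and 42.3%, 57.2%, 13.8% and 43.4% in sham libraries. The 3p arm, the known guide, was the larger in only 2 of 13 libraries. Pooled over libraries, 37.7% of Mir29a tags lay on the 3p arm (exact 95% interval 35.0% to 40.4%). The lower quartile of the 622 precursors with both arms in the table was 39.5%, inside that interval. For the 2 Mir29b loci together it was 66.1% (interval 63.6% to 68.5%), with the 3p arm the larger in all 13 libraries, and for Mir29c 49.3% (interval 43.4% to 55.2%). These intervals cover counting error of pooled tags and not the spread between libraries. Single libraries ran from 13.8% to 62.2% for Mir29a, 52.4% to 90.9% for Mir29b and 0% to 74.1% for Mir29c. The median precursor had 50.2%, and 77.8% of precursors lay between 30% and 70%, while Mir124 had 98.3%.

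By group, the mean percentage on the 3p arm of Mir29a was 31.6 ± 8.30 in ipsilateral, 36.7 ± 20.3 in contralateral and 39.2 ± 18.2 in sham libraries. Over all 7 miRNAs it was 46.9 ± 11.6 in ipsilateral, 48.7 ± 13.7 in contralateral and 53.9 ± 12.4 in sham libraries, with overlapping ranges. Each group held libraries at both ends: ipsilateral replicates 5 and 1 had 59.6% and 31.6%, contralateral replicates 4 and 5 had 61.2% and 36.0%, and sham replicates 2 and 3 had 65.1% and 36.2%.

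A feature of sequence went with the level of miR-29a-5p. It is 50% U with a run of 4 U, against 27.3% U in miR-29a-3p. Among the 1469 miRNAs with a RefSeq sequence, the median total was 150 tags for those with under 20% U, 154, 183 and 254 for the next classes of 10 percentage points each, and 474 for the 31 with 50% U or more, whose upper quartile was 797.5. miR-29a-5p, with 787 tags, lay inside the interquartile range of its class. The other members did so only in part. From 40% to under 50% U the quartiles were 176.5 and 346.25, and miR-29b-2-5p had 312 tags, miR-29b-1-5p 176 and miR-29c-5p 148. From 30% to under 40% U they were 135 and 252, and miR-29b-3p had 950 and miR-29c-3p 144. miR-29a-3p, with 476, was above the upper quartile of its class, 211. The part of base composition in the level of miR-29a-5p was not tested.

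Across libraries miR-29a-3p and miR-29b-3p varied together, and miR-29c-3p followed them less closely. Over 13 libraries the Pearson correlation of log2 scaled counts (TMM, prior count 2) was 0.806 between miR-29a-3p and miR-29b-3p (Spearman 0.736), but 0.378 between miR-29a-3p and miR-29c-3p (Spearman 0.437) and 0.273 between miR-29b-3p and miR-29c-3p (Spearman 0.514). With miR-29a-5p it was 0.294 for miR-29b-3p (Spearman -0.0549), -0.529 for miR-29c-3p (Spearman -0.363) and 8.78e-05 between miR-29a-3p and miR-29a-5p, which come from the same hairpin. Without the shallow ipsilateral replicate 5, a step added after seeing the data, the 3 guide arms had correlations of 0.809 (29a with 29b), 0.812 (29b with 29c) and 0.648 (29a with 29c), and miR-29a-3p had -0.30 with miR-29a-5p. The points share depth and the composition of each library, and near-identical guide arms may share reads, so the values are descriptions.

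**Figure D4:**
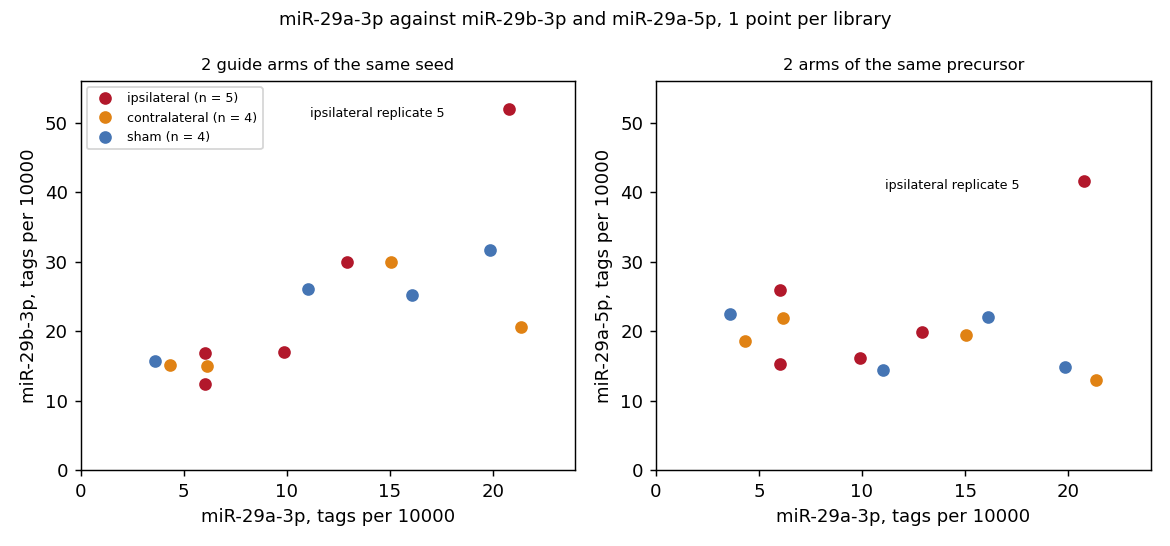
Tags per 10000 miRNA tags of miR-29a-3p (horizontal axes) against miR-29b-3p (left) and miR-29a-5p (right), with 1 point per library, coloured by group. Libraries high in miR-29a-3p are high in miR-29b-3p (Pearson 0.806 on log2 values), whereas the arms of Mir29a show no such relation (8.78e-05); ipsilateral replicate 5 is the point at the upper right of both.

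The miRNAs whose pattern was most like that of miR-29b-3p, of 1426 others compared, were miR-191-5p (Pearson 0.854, Spearman 0.868), miR-16-5p (0.807 and 0.709) and miR-29a-3p (0.806 and 0.736). Without ipsilateral replicate 5 they were miR-29c-3p (0.812), miR-29a-3p (0.809) and miR-383-3p (0.793). For miR-29a-5p they were miR-7651-3p (0.922 and 0.868), miR-7079-3p (0.904 and 0.830) and miR-7231-3p (0.885 and 0.769). The 9 of the 10 miRNAs most like miR-29a-5p that had a RefSeq sequence were 43.5% U at the median, and the 8 such of miR-29b-3p were 19.96% U, against 26.1% over all 1469.

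Target sites were read from the AGO peaks on other RNAs. A site was a match to bases 2 to 8 of the guide, TGGTGCT on the target strand, or to bases 2 to 7 followed by A, GGTGCTA, and a match with both is called an 8mer. Of 6788 3'UTR peaks with transcript sequence, 112 held a miR-29 guide site (41 8mers, 49 matches to bases 2 to 8 and 22 matches followed by A), in 107 genes, with 2633 tags. Sites occurred in 1.62% of full-length peaks, against 1.04% of 63737 windows of 80 bases tiled over the same 3'UTRs outside the peaks, a ratio of 1.56. The ratio was higher for the guide seeds of let-7 (1.70), miR-30 (1.87), miR-9-5p (2.035) and miR-26 (2.13). The corresponding ratio for the 5p seeds was 1.01 for miR-29a-5p (AAATCAG), 1.09 for miR-29b-1-5p (AAACCAG), 1.75 for miR-29b-2-5p (GAAACCA, which shares AAACCA with the previous one) and 0.781 for miR-29c-5p (ATCGGTC, 6 peaks). Of the miR-29 guide sites, 71.4% lay within 20 bases of the peak centre. It was 50% to 66.7% for the 5p seeds and 62.3% to 76.7% for the other guide seeds named here. A match describes the letters under a peak and does not show which miRNA was bound.

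The sites below, with the matching bases in capitals, are those of the most covered peak, of the glutamate transporter gene Slc1a2 and of a further well covered gene, Purg; the sequence is that of GENCODE M21 transcripts (GRCm38) on the gene's strand.
Sparc: tagatttaactgaatacattaacGGTGCTA
Slc1a2: tttctataagaagaataaaggccGGTGCTA
Purg: acagttaggtcctaaactcctgTGGTGCTA
They lie in 3'UTRs at chr11:55395436-55395465 (Sparc, minus strand), chr2:102788536-102788565 (Slc1a2, plus strand) and chr8:33417267-33417296 (Purg, plus strand). The sites of Sparc and Slc1a2 pair with bases 2 to 7 and end in A, whereas that of Purg is an 8mer.

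Peaks with a guide site held a smaller share of 3'UTR tags in the occluded hemisphere. The share was 2.10%, 1.85%, 1.66%, 1.75% and 1.80% in ipsilateral, 2.51%, 2.17%, 2.55% and 2.43% in contralateral and 2.89%, 2.49%, 2.36% and 2.31% in sham libraries. Every ipsilateral library lay below every contralateral and every sham library, and the contralateral and sham libraries overlapped. The means were 1.83 ± 0.167 in ipsilateral, 2.41 ± 0.171 in contralateral and 2.51 ± 0.266 in sham libraries (SD, n = 5, 4 and 4), a log2 ratio of means of -0.45 for ipsilateral over sham and -0.40 for ipsilateral over contralateral. The lower ipsilateral share against sham libraries was already known when the family was chosen, so no test is given.

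Other seeds show how common such a pattern was. Of 828 seeds with at least 50 site peaks, 22 (2.66%) had every ipsilateral library below every sham library, 15 (1.81%) every ipsilateral below every contralateral library, and 4 (0.483%) both. In the other direction 6 seeds (0.725%) had every ipsilateral library above every sham library and 7 (0.845%) above every contralateral library; between contralateral and sham libraries 5 seeds (0.604%) lay wholly lower and 10 (1.21%) wholly higher, the miR-29 seed not among them. The 4 were the miR-29 guide seed and, named after their values were seen, the seeds of miR-7651-3p, of miR-26a-2-3p with miR-26b-3p and others, and of miR-547-3p. The log2 ratio of the miR-29 seed ranked 18 of 828 from the lowest against sham and 28 against contralateral libraries. The seeds overlap in peaks and share libraries, so these counts are a description.

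**Figure D5:**
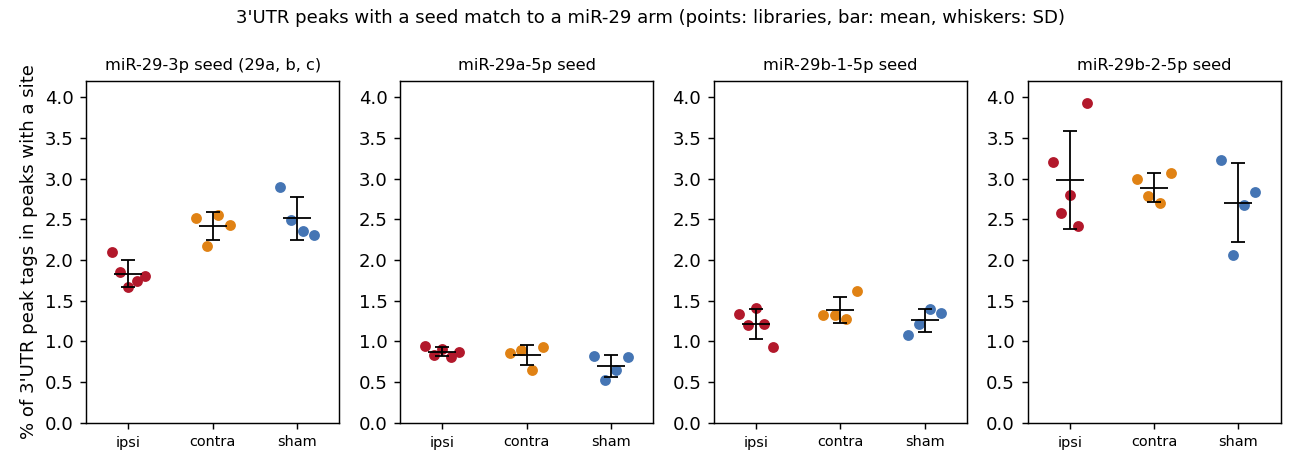
Percentage of 3'UTR peak tags that lay in peaks with a match to the seed of the guide arms (left) or of 3 of the 5p arms, in ipsilateral (n = 5), contralateral (n = 4) and sham (n = 4) libraries; points are libraries, bars means and whiskers SD. In the left panel all 5 ipsilateral libraries, at 1.66% to 2.10%, lie below the 8 others, at 2.17% or more, and in the other panels the groups overlap.

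The seeds of the 5p arms did not separate the groups: the share was 0.874 ± 0.0573% in ipsilateral, 0.835 ± 0.126% in contralateral and 0.699 ± 0.141% in sham libraries for miR-29a-5p sites, and 2.99 ± 0.606%, 2.89 ± 0.176% and 2.70 ± 0.485% in ipsilateral, contralateral and sham libraries for miR-29b-2-5p sites. Other guide seeds were lower too. Sites of miR-9-5p had 2.04 ± 0.152% in ipsilateral, 2.45 ± 0.407% in contralateral and 2.51 ± 0.113% in sham libraries, wholly lower in ipsilateral than in sham libraries. Log2 ratios for ipsilateral over sham and over contralateral were -0.38 and -0.33 for let-7, -0.18 and -0.13 for miR-26 and -0.05 and -0.02 for miR-30, all with overlap. Of the miR-29 guide site types, 8mers alone had 0.621 ± 0.160% in ipsilateral, 0.783 ± 0.173% in contralateral and 1.02 ± 0.187% in sham libraries, with overlap. Matches to bases 2 to 8 without the A had 0.690 ± 0.292%, 0.779 ± 0.140% and 0.769 ± 0.144% in the same order. Matches to bases 2 to 7 followed by A had 0.523 ± 0.253%, 0.853 ± 0.175% and 0.725 ± 0.241%. Both overlapped, so no single site type separated the groups. As a share of all peak tags, intronic ones included, the miR-29 guide sites had 0.707% in ipsilateral, 0.888% in contralateral and 0.756% in sham libraries on average, a log2 ratio of -0.0948 for ipsilateral over sham and -0.33 for ipsilateral over contralateral, and the groups overlapped in both. As a share of exonic peak tags the log2 ratio was -0.31 for ipsilateral over sham and -0.29 for ipsilateral over contralateral, without overlap.

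Most site peaks with at least 10 tags were lower on the ipsilateral side. The 8 site peaks with the most tags held 38.3% of all site peak tags. How the lower share divided among peaks was not tested. Of 89 site peaks with at least 10 tags, 58 (65.2%) were lower, by tags pooled within each group, on the ipsilateral side than after sham surgery, against 51.8% of all such 3'UTR peaks, and 59 (66.3%) were lower on the ipsilateral than on the contralateral side, against 49.6% of all. In contralateral against sham libraries it was 45 of 89 (50.6%), against 49.8% of all. Marker tags of the oligodendrocyte lineage, astrocytes and neurons overlapped between groups but reached lower on the ipsilateral side. Of 10 oligodendrocyte lineage genes, 5 had tags (Mog, Mag, Olig1, Olig2 and Cspg4 at 0). They took 0.148% to 0.473% of exonic tags in ipsilateral, 0.456% to 0.751% in contralateral and 0.439% to 0.608% in sham libraries. Of 11 astrocyte genes, 9 had tags (Gfap and Ntsr2 at 0). They took 1.21% to 2.24% in ipsilateral, 1.95% to 2.82% in contralateral and 1.67% to 2.30% in sham libraries. Of 12 neuron genes, 10 had tags (Rbfox3 and Tubb3 at 0). They took 1.82% to 3.59% in ipsilateral, 2.99% to 3.71% in contralateral and 2.96% to 3.44% in sham libraries. The other lists were sparse. Microglia and myeloid genes took 0% to 0.0512% in ipsilateral, 0% to 0.0259% in contralateral and 0.0056% to 0.0164% in sham libraries. Vascular genes took 0% to 0.0645%, 0% to 0.0259% and 0% to 0.0336% in the same order. For both lists the highest value was ipsilateral. Blood genes took 0% to 0.0215%, 0% to 0.0332% and 0% to 0.0287%. The part of marker genes in the share of the site peaks was not tested.

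Sparc, which encodes a secreted matrix protein made in brain by glia and vessels, held the most covered site peak (chr11:55395404-55395483, 453 tags). It had 63.7, 13.8, 29.5, 3.36 and 38.3 tags per 10000 3'UTR tags in ipsilateral, 60.4, 15.7, 47.5 and 52.1 in contralateral and 70.3, 19.9, 25.1 and 27.1 in sham libraries. The values spanned a wide range within each group, with replicate 1 the highest in all 3 groups. Without this peak the log2 ratio of the guide site share was -0.49 in ipsilateral over sham and -0.36 over contralateral libraries and the groups still did not overlap.

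The site peak of Slc1a2, the astrocytic glutamate transporter GLT-1 (chr2:102788503-102788582, 84 tags), had 4.42, 5.03, 3.85, 10.1 and 10.9 tags per 10000 3'UTR tags in ipsilateral, 3.43, 11.2, 8.90 and 8.99 in contralateral and 8.35, 17.4, 6.27 and 7.47 in sham libraries. Ipsilateral replicates 1, 2 and 3, with 5, 8 and 6 tags, were below every sham library, and replicates 4 and 5, with 3 and 2 tags, were not. The lowest sham value, in replicate 3, rested on 3 tags. The lowest value of all was that of contralateral replicate 1, with 5 tags. Purg, a single-stranded nucleic acid binding protein, had pooled values of 3.36 in ipsilateral, 7.09 in contralateral and 6.86 in sham libraries. Among the other well covered site peaks, Pcdha3, a protocadherin, had 11.4 in ipsilateral, 15.4 in contralateral and 18.2 in sham libraries, whereas Gsk3b, a kinase, had 3.57, 4.32 and 3.96 and Dpysl2, a regulator of microtubules in axons, 4.62, 1.85 and 5.28 in ipsilateral, contralateral and sham libraries.

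Genes reported as miR-29 targets were read as tags summed over their exonic peaks. Of 52 listed genes, 22 had such tags and 11 of those had a guide site in a 3'UTR peak. Among the targets named below, Tet3, Dnmt3a, Slc1a2, Sparc and Bace1 had such a site. Pik3r1, Ccnd2, Vdac1 and Mcl1 did not. The matrix genes were mostly not covered: 4 of 20 had tags, and of 13 collagens only Col4a1 and Col4a2, the basement membrane chains, did. Of 427 genes tested, edgeR called 2 in ipsilateral against sham libraries (0.468%): Hspa1b, an inducible heat shock protein, higher, and Cnksr2, a postsynaptic scaffold, lower. Neither is a listed target, and both are named after their values were seen. It called 0 in ipsilateral against contralateral (0%; 54 at an unadjusted p under 0.05, DESeq2 6) and 0 in contralateral against sham libraries (0%; 7 unadjusted, DESeq2 0). With the replicate number as a block it called 4, 5 and 0 genes in the 3 comparisons. With 1 library left out, the count in ipsilateral against sham libraries was 0 in 10 of 13 fits and 9 without ipsilateral replicate 1, and in ipsilateral against contralateral libraries it was 11 without ipsilateral replicate 1. Of the listed targets 7 passed the filter, and 0 were called in each comparison by edgeR with or without the block or by DESeq2, which gave no adjusted p for 4 of the 7 in ipsilateral against contralateral libraries.

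The 7 tested targets had mostly log2 fold changes below 0 on the occluded side, none of them called. In ipsilateral against sham libraries 6 of 7 had a log2 fold change below 0, where 53.9% of all genes did, with a median of -0.34 against -0.05 over all genes; at an unadjusted p under 0.05 there were 0, where 9.6% of all genes were. In ipsilateral against contralateral libraries 6 of 7 were below 0, where 49.4% of all genes were. The median was -0.35 against 0.00 over all genes, and 2 had an unadjusted p under 0.05, where 12.6% of all genes did. Among the 6, Ccnd2 had only -0.0041, and 0.113 with the replicate block. In contralateral against sham libraries 2 of 7 were below 0, where 54.1% of all genes were. Of the 37 tested genes with a guide site peak, 26 (70.3%) were below 0 in ipsilateral against sham libraries. The number was 22 (59.5%) in ipsilateral against contralateral and 16 (43.2%) in contralateral against sham libraries. The comparisons share libraries, and the list of targets was written with earlier results of these data known.

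The 2 genes with an unadjusted p under 0.05 in the edgeR fit without the block were Tet3, which oxidises methylated DNA, and Pik3r1, the regulatory subunit of phosphoinositide 3-kinase. Tet3 averaged 4.80 ± 2.88 tags per 10000 exonic tags in ipsilateral, 11.04 ± 1.65 in contralateral and 7.88 ± 3.04 in sham libraries, with every ipsilateral library, up to 7.43, below every contralateral library, from 8.87. It was the only 1 of the 7 with such a separation, which 10 of the 427 tested genes (2.34%) showed. Its log2 fold change was -0.93 (SE 0.39, edgeR adjusted p = 0.331) against contralateral and -0.61 (SE 0.39, adjusted p = 0.579) against sham libraries. Pik3r1 had no 3'UTR peak with a guide site. It averaged 10.1 ± 2.84 in ipsilateral, 17.9 ± 7.18 in contralateral and 12.4 ± 2.23 in sham libraries. Its log2 fold change against contralateral libraries was -0.75 (SE 0.33, edgeR adjusted p = 0.352). Which genes these were changed with the fit: with the replicate block the unadjusted edgeR p was 0.0566 for Tet3 and 0.0414 for Pik3r1, and with DESeq2 it was 0.0411 for Tet3, 0.0539 for Pik3r1 and 0.0333 for Dnmt3a.

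Dnmt3a, which sets new DNA methylation, averaged 4.62 ± 3.63 in ipsilateral, 14.9 ± 14.4 in contralateral and 8.13 ± 1.85 in sham libraries (ipsilateral against contralateral, log2 fold change -1.06, SE 0.55, edgeR adjusted p = 0.396). Slc1a2 summed over its exonic peaks averaged 118 ± 31.7 in ipsilateral, 149 ± 40.02 in contralateral and 132 ± 22.7 in sham libraries. Peaks annotated partly to an intron are not in these sums; with them, an alternative added after seeing the data, Slc1a2 averaged 211 ± 45.5 in ipsilateral, 255 ± 74.7 in contralateral and 219 ± 24.5 in sham libraries, and no listed target was called. Sparc averaged 25.3 ± 15.4 in ipsilateral, 31.8 ± 11.4 in contralateral and 29.01 ± 16.3 in sham libraries. Ccnd2, a cell cycle cyclin, averaged 6.80 ± 3.36 in ipsilateral, 6.44 ± 2.51 in contralateral and 9.35 ± 3.33 in sham libraries. Vdac1, a mitochondrial channel, Bace1, the beta-secretase, and Mcl1, an anti-apoptotic protein, had 102, 95 and 64 tags and did not pass the filter. Of the apoptosis targets 3 of 6 had tags and 0 were tested.

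Of 15 genes of the miRNA pathway, 5 had exonic tags and 4 were tested, and edgeR called 0 in each comparison. Their median log2 fold change was -0.40 in ipsilateral against sham, -0.19 in ipsilateral against contralateral and -0.29 in contralateral against sham libraries.

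The peak table also covered 2 of the 4 precursor loci. A peak over the Mir29b-2 hairpin (chr1:195037063-195037142), annotated in an exon of A330023F24Rik, had 4, 2, 1, 0 and 0 tags in ipsilateral, 4, 0, 0 and 0 in contralateral and 4, 3, 3 and 2 in sham libraries. A peak over Mir29b-1 (chr6:31062995-31063074) had 8 tags in all. Every sham library had tags over Mir29b-2 while 2 of 5 ipsilateral and 3 of 4 contralateral libraries had 0, at counts too low to tell the groups apart.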

How the data were processed

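The 13 libraries were grouped by their labels. Per the submitters' processing notes, the authors aligned reads with Novoalign to mm10. The authors deposited raw counts: 1 table gives tags for each miRNA arm, the other for each AGO peak. How duplicate tags and reads matching several miRNAs were counted is not given in the sources used here, so intervals cover counting error only, and every miRNA had at least 50 tags. Levels are tags per 10000 miRNA tags of a library. edgeR 4.0.16 (quasi-likelihood, TMM, filterByExpr, all 13 libraries in 1 fit, Benjamini-Hochberg threshold 0.05, two-sided) was fitted to all miRNAs and to tags summed per gene over peaks annotated to exons alone, after both fits were tested on simulated data; DESeq2 1.42.0 was the alternative. Peak sequence was read on the gene's strand from GENCODE M21 (GRCm38), since the strand letters in peak names did not follow the genes. Seeds were searched in 3'UTR peaks with at least 50 bases of sequence. Members, gene lists and summed measures were chosen with earlier results of these data known. The 691 peaks annotated partly to exons (3.62% of peak tags) and 1 peak without a position were left out of gene sums. All miR-29 miRNAs are named, with the 3 miRNAs most like each of the 2 most covered. Targets named are the 10 listed genes with the most exonic tags, and site peaks the 8 with the most tags, except items that are not reported here.

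The design text of the series says that sets of biological replicates came from separate days of surgery. Replicate numbers were read as those sets, which the sample labels do not state. Deviations of same-numbered libraries from the group means correlated at 0.139 to 0.225 in ipsilateral with contralateral libraries. The values were -0.0663 to 0.271 in ipsilateral with sham and 0.0353 to 0.367 in contralateral with sham libraries. For libraries with different numbers they were -0.251 to 0.272, -0.213 to 0.177 and -0.238 to 0.159 in the same order. These ranges overlapped in each comparison, so pairing was not shown by every pair.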

Additional observations from a re-analysis of the deposited data

How the results depend on the processing

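No alternative tried gave a called miRNA or a called listed target. The mean guide site share was lower in ipsilateral libraries than in both other groups under each. The share did not separate the groups over all peak tags or for 8mers only. Its log2 ratio for ipsilateral over sham was -0.306 over exonic tags, -0.0948 over all peak tags and -0.715 for 8mers only; for contralateral over sham it was 0.233 over all peak tags and -0.38 for 8mers only. With libraries left out it ran from -0.509 to -0.38 for ipsilateral over sham, -0.451 to -0.364 for ipsilateral over contralateral and -0.0966 to 0.0171 for contralateral over sham. Genes called in ipsilateral against sham libraries were 5 with DESeq2, 1 with library totals, 4 with the replicate block, 1 with the compared groups alone, 1 with part-intron peaks added and 0 to 9 with libraries left out. In ipsilateral against contralateral libraries they were 6 with DESeq2, 2 without the filter, 5 with the block and 0 to 11 with libraries left out. The block changed no other call. Fold changes near 0 changed sign, and the cause was not tested. With scaling to the library median the value was 0.016 for miR-29b-3p in ipsilateral against sham. With DESeq2 they were -0.00169 for miR-29b-1-5p in ipsilateral against contralateral, -0.00601 for miR-29a-5p in contralateral against sham and 0.0374 for Sparc in contralateral against sham. Without the filter they were -0.00833 for miR-29b-1-5p in ipsilateral against contralateral and -7.91e-05 for miR-29a-5p in contralateral against sham. With the replicate block they were -0.0128 for miR-29b-1-5p in ipsilateral against contralateral, 0.113 for Ccnd2 in ipsilateral against contralateral and 0.154 for Sparc in contralateral against sham. With library totals they were -0.00565 for miR-29a-5p in contralateral against sham and 0.0561 for Sparc in contralateral against sham. With only the compared groups fitted they were -0.00523 for miR-29a-5p in contralateral against sham and 0.00654 for Sparc in contralateral against sham. With part-intron peaks added, an alternative chosen after seeing the data, the value was 0.0529 for Sparc in contralateral against sham.

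With libraries left out, 1 at a time or those of replicate 1 together, the log2 fold changes that crossed 0 ran as follows. In ipsilateral against sham the ranges were -0.384 to 0.056 for miR-29b-3p, -0.155 to 0.116 for miR-29b-1-5p, -0.0385 to 0.168 for miR-29b-2-5p, -0.18 to 0.483 for miR-29c-5p and -0.68 to 0.408 for Sparc. In ipsilateral against contralateral the ranges were -0.667 to 0.201 for miR-29a-3p, -0.144 to 0.617 for miR-29b-3p, -0.923 to 1.03 for miR-29c-3p, -0.242 to 0.0898 for miR-29b-1-5p, -0.115 to 0.091 for miR-29b-2-5p, -0.657 to 0.0262 for Sparc and -0.279 to 0.23 for Ccnd2. In contralateral against sham the ranges were -0.599 to 0.138 for miR-29a-3p, -0.111 to 0.16 for miR-29a-5p, -0.144 to 0.329 for miR-29b-1-5p, -0.00434 to 0.215 for Slc1a2, -0.167 to 0.584 for Sparc and -0.172 to 1.03 for Dnmt3a. Depth limits the 4 miRNAs with 312 tags or fewer and the libraries of ipsilateral replicates 4 and 5, with 11132 and 3851 miRNA tags.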
